A study of Mus musculus with 6 samples.

Results

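The genes described here are App, which encodes the amyloid precursor protein, its relative Aplp2, and 7 genes of the secretases that cut these proteins: Adam10, Bace1, Bace2, Psen2, Ncstn, Psenen and Aph1a. They were chosen by gene symbol, and 9 of 9 were found among the 55487 genes of the deposited tables. RNA came from mouse primitive macrophages, the macrophages that arise first in the embryo, grown from embryonic stem cells by 12 days with M-CSF, IL-3, SCF, VEGF, BMP-4, FGF2 and activin A. There were 3 libraries from wild-type cells and 3 from Ts1Cje cells. Ts1Cje mice, a model of Down syndrome, have a distal stretch of chromosome 16 in 3 copies and the rest of the chromosome in 2. The extra stretch is translocated to the end of chromosome 12, which lost a small piece there, and the translocated copy of Sod1 at its edge is disrupted. Bace2 lies in that stretch, and App lies on the same chromosome but outside it, so these cells differ from human trisomy 21 in keeping App at 2 copies. The labels number the replicates as lots, and the sources used here do not say what a lot is, whether lots are separate stem cell lines or differentiations, or which strain was used. P-values therefore measure the spread between these samples, which may be technical.

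App and Aplp2 are membrane proteins with a large outer part and a short tail in the cytoplasm. An alpha-secretase such as ADAM10, or a beta-secretase, BACE1 or BACE2, first sheds the outer part, and gamma-secretase then cuts the remaining stub inside the membrane. Gamma-secretase is built from a presenilin that holds the active site, nicastrin (Ncstn), PEN-2 (Psenen) and an APH-1 protein. Cutting of App by BACE1 and gamma-secretase releases amyloid beta, whereas ADAM10 cuts within the amyloid beta stretch. BACE2 also cuts App within that stretch. In macrophages and microglia the same enzymes process many other membrane proteins, and microglia take up and degrade amyloid beta.

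The promoters of App, Aplp2 and Adam10 are shown because App and Adam10 were the 2 members whose TPM values (a level scaled by gene length, with the same total in each library) did not overlap between genotypes, and Aplp2 is the relative of App. Each is the 120 bases just before the outermost annotated start, 5′ to 3′ on the gene's strand, from RefSeq (GRCm38.p6). Capitals mark GGGCGG or CCAAT on either strand. The windows are chr16:85173767-85173886 (minus strand) for App, chr9:31211849-31211968 (minus strand) for Aplp2 and chr9:70678862-70678981 (plus strand) for Adam10.
App: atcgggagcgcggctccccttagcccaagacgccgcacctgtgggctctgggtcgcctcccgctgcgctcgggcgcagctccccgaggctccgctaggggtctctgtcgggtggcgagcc
Aplp2: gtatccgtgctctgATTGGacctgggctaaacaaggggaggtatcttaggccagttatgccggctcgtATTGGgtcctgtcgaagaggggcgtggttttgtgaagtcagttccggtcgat
Adam10: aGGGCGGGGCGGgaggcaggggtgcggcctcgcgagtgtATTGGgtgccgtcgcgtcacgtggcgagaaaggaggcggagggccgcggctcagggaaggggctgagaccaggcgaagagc

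The Adam10 window held GGGCGG 2 times, sharing bases with each other, and CCAAT 1 time. Aplp2 held CCAAT 2 times, and App held neither. GGGCGG on either strand was in 26.5% and CCAAT in 21.3% of 32851 promoter windows of 120 bases, and TATAAA, searched as written, was in 4.19% of all windows and in none of these 3. The G and C share was 74.2% for App, 72.5% for Adam10 and 54.2% for Aplp2, against a median of 54.2% over all windows. App and Adam10 each had 14 CG dinucleotides, Aplp2 had 7, and the median was 3.

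Total counts were 25484294 to 32658148 per library. All 15 macrophage markers listed were above 1 CPM on average (counts scaled by the library's total over tested genes and a TMM factor). Their summed level was 10908.5 to 22803 CPM in wild-type and 12273 to 21569 in Ts1Cje libraries. The highest sum of any marker list of another cell type in any library was 186.7 CPM, for megakaryocyte and mast cells in wild-type replicate 2, of which Pf4 made up 185 CPM. Mesenchymal markers summed to 18.1 to 41.3 CPM in wild-type and 12.8 to 76.9 in Ts1Cje, neural ones to 26.3 to 59.7 and 23.1 to 73.8, endothelial ones to 12.3 to 45.7 and 30.8 to 52.5, and the other lists to less in most libraries. Of these, Sox2 and Esrrb (pluripotent), Emcn and Cldn5 (endothelial), Neurod1 and Sox1 (neural), Ly6g (neutrophil) and Mcpt4 and Fcer1a (mast) had 0 counts in all 6 libraries. The highest cardiomyocyte sum, 72.9 CPM, and the highest epithelial and endoderm sum, 40.1 CPM, were both in wild-type replicate 1. Wild-type replicate 1 also stood apart on the first principal component, at -52.0 against -9.45 to 23.9 for the rest. The part of these differences in the results below was not tested. Recomputed without each library were the numbers of genes called and the log2 ratios of counts. The fold changes of members, their chromosome 16 neighbours and the named pathway genes other than Hey1 were recomputed too. Levels, proportions, overlap of the genotypes, counts and medians over lists or chromosome parts, and correlations were not.

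The members spanned more than 3 orders of magnitude in level. Aplp2 was highest, at 1073 ± 297 TPM (SD, n = 6 libraries), rank 92 of the 13821 genes tested. It was followed by Ncstn at 206 ± 22.3, Psenen at 169 ± 21.8 and Adam10 at 139 ± 20.5 TPM. Aph1a had 69.4 ± 5.59, App 58.0 ± 6.87 and Psen2 53.8 ± 13.4 TPM, and Bace1 had 7.33 ± 2.08. Bace2, at 0.206 ± 0.151 TPM, was rank 13694 of 13821. Aplp2 exceeded Ncstn, Adam10 exceeded Aph1a, Psen2 exceeded Bace1 and Bace1 exceeded Bace2 in 6 of 6 libraries, with ranges that did not overlap. Ncstn and Psenen, Psenen and Adam10, and Aph1a and App kept their order in 5 of 6 libraries with overlapping ranges. App and Psen2 could not be ordered in TPM, with App above Psen2 in 3 of 6 libraries. These TPM are the authors' values on 1 scale for all genes, and App made up 4.12% to 6.15% of the summed TPM of App and Aplp2. App has the most annotated exon sequence of the members, 12996 bp against 5875 bp for Aplp2 and 4332 bp for Psen2. Its order and share in TPM thus depend on the gene length used. In CPM, not scaled by length, App had 211 to 299 and Psen2 60.9 to 110.1 over the libraries.

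**Figure D1:**
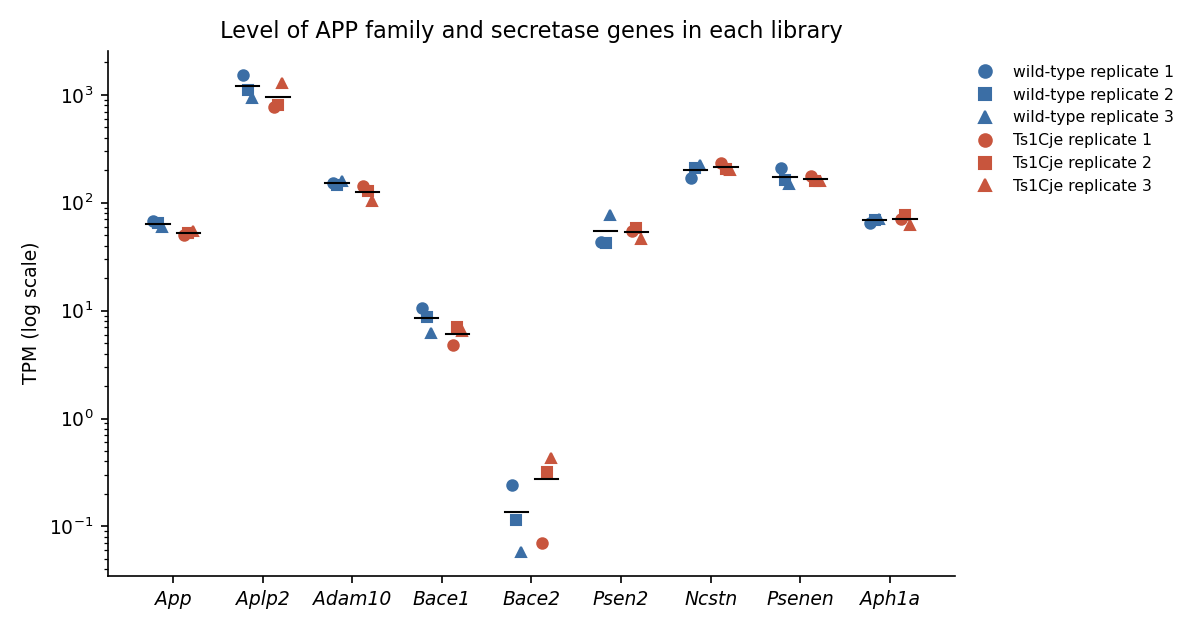
TPM of the 9 members on a log axis, each symbol 1 library (blue wild-type, red Ts1Cje, shape by replicate number) and each black line a genotype mean of 3 libraries. Aplp2 lies at 765 TPM or more and Bace2 below 1 TPM in every library, and the genotypes separate only for App and Adam10.

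None of the 9 members passed the genotype comparison. This comparison was edgeR's quasi-likelihood test on raw counts, in which 1 of 13821 genes (0.00724%) passed at an adjusted p of 0.05 (Benjamini-Hochberg). An unadjusted p under 0.05 was reached by 5.79% of all genes and by 0 of the 9 members, and 0 of 9 passed in DESeq2, which called 0.406% of all genes, and in limma-voom, which called 0.00724%. Log2 fold changes (Ts1Cje over wild-type) were positive for 3 members, as for 49.2% of all genes, and negative for 6, as for 50.8%. Their median was -0.08, against -0.01 over all genes. In CPM 1 member, Adam10, was lower in every Ts1Cje than in every wild-type library, as were 5.72% of all genes (12.1% did not overlap in either direction). In TPM 2 members, App and Adam10, were, as were 5.66% of all genes (11.1% in either direction). No member was higher in every Ts1Cje library, where 6.38% of all genes were in CPM and 5.46% in TPM. In bulk RNA, fewer cells of a type and less RNA per cell cannot be told apart.

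**Figure D2:**
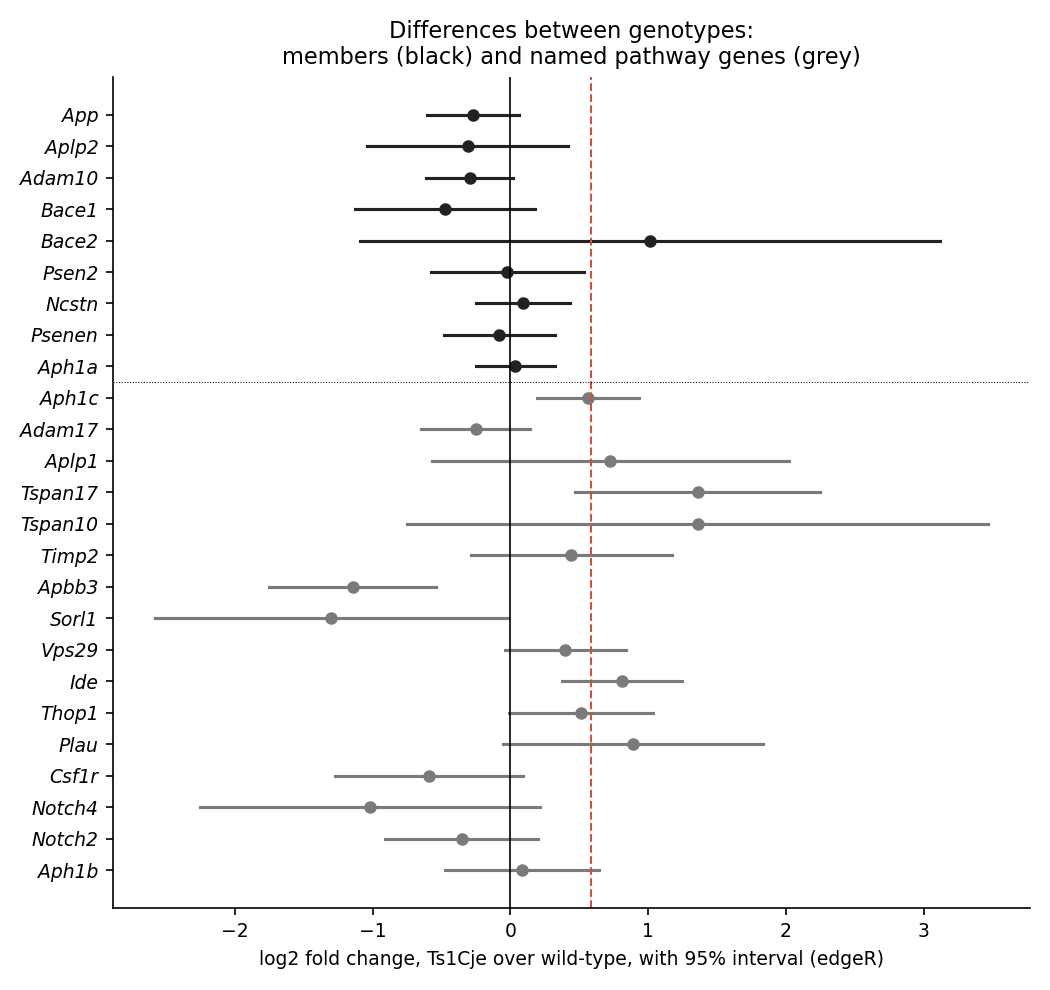
Log2 fold change of Ts1Cje over wild-type with its 95% interval (edgeR, 3 libraries per genotype) for the members in black and the named pathway genes in grey. The dashed red line is 0.58, the log2 value of 3 copies against 2; the intervals of all 9 members include 0, and of the members only the interval of Bace2 includes 0.58.

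App, the substrate that gives amyloid beta, lies at 84949685 to 85173766 on the minus strand of chromosome 16 (mm10; ENSMUSG00000022892). Its level was 67.2, 64.8 and 59.0 TPM in wild-type replicates 1 to 3 and 50.2, 52.2 and 54.8 TPM in Ts1Cje replicates 1 to 3. All Ts1Cje libraries thus lay below all wild-type libraries on the TPM scale. In CPM the values were 299, 280.3 and 251 against 211, 220.0 and 257, and Ts1Cje replicate 3 lay above wild-type replicate 3. Mean CPM were 277 ± 24.1 and 229 ± 24.4 (SD, n = 3), and the log2 fold change was -0.27 ± 0.14 (SE), with a 95% interval of -0.61 to 0.06 (unadjusted p = 0.0988, adjusted p = 0.792, edgeR). The interval held 0 and ended below 0.58, the value for a gene in 3 copies. App stayed negative in all 17 alternatives, from -0.37 to -0.21, and never passed.

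Aplp2, which is cut by the same enzymes but holds no amyloid beta sequence, lies on chromosome 9 (31149557 to 31211815, minus strand; ENSMUSG00000031996). It had 3097, 2172 and 1799 CPM in wild-type and 1453, 1548 and 2699 CPM in Ts1Cje replicates 1 to 3. The genotypes overlapped, since Ts1Cje replicate 3 had more than wild-type replicates 2 and 3. Its log2 fold change was -0.31 ± 0.31 (SE), with an interval of -1.04 to 0.42 (adjusted p = 0.856, edgeR). Leaving out wild-type replicates 1 and 3 gave -0.07 and -0.47, and leaving out Ts1Cje replicates 1, 2 and 3 gave -0.15, -0.18 and -0.66. The libraries with the most Aplp2, wild-type replicate 1 and Ts1Cje replicate 3, were also those with the highest summed macrophage markers, at 22803 and 21569 CPM against 10908.5 to 14698 in the others. Lyz2, the lysozyme of phagocytes, carried much of that gap, with 10372 and 11565 CPM against 2298 to 6139. Over the 14 markers without Lyz2, the sums were 12431 and 10004 CPM against 8559 to 9865, so that Ts1Cje replicate 3 lay close to wild-type replicate 2. Some single markers ran the other way: Ts1Cje replicate 3 was lowest in Fcgr1 and Ptprc, and wild-type replicate 1 in Itgam and Fcer1g. The part of this in the Aplp2 difference was not tested.

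Within a library, the log2 ratio of App to Aplp2 counts does not depend on the scaling. Wild-type replicates 1 to 3 had ratios of -3.37, -2.95 and -2.84, and Ts1Cje replicates 1 to 3 had -2.79, -2.81 and -3.39. The genotypes overlapped over nearly their whole range, and the means differed by 0.06 (exact two-sided permutation p = 0.6, 0.6 adjusted over 4 ratios). With 3 against 3 libraries the smallest p this test can give is 0.1. The sign of that small difference turned when single libraries were left out.

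Adam10 encodes the main alpha-secretase, which also sheds Notch receptors and many other surface proteins. It lies on chromosome 9 (70678997 to 70780229, plus strand; ENSMUSG00000054693). Its level was 256, 241 and 258 CPM in wild-type and 227, 206 and 183 CPM in Ts1Cje replicates 1 to 3. Every Ts1Cje library was below every wild-type library, in CPM and in TPM (152, 147 and 161 against 143, 129 and 103 TPM). Means were 252 ± 9.36 and 205 ± 22.2 CPM (SD, n = 3), with a log2 fold change of -0.29 ± 0.14 (SE) and an interval of -0.61 to 0.02 (unadjusted p = 0.0641, adjusted p = 0.792, edgeR). Its spread within genotypes was small, an SD of 0.12 in log2 CPM against a median of 0.34 over all genes. Adam10 stayed negative in all 17 alternatives, from -0.37 to -0.22, and with upper-quartile factors its unadjusted p was 0.0453.

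Bace1, the beta-secretase that starts the path to amyloid beta, lies on chromosome 9 (45838580 to 45864399, plus strand; ENSMUSG00000032086). It had 23.2, 18.4 and 12.96 CPM in wild-type and 9.76, 14.6 and 14.9 CPM in Ts1Cje replicates 1 to 3. Wild-type replicates 1 and 2 were highest, Ts1Cje replicate 1 was lowest, and wild-type replicate 3 fell among the Ts1Cje libraries. The log2 fold change was -0.47 ± 0.28 (SE), with an interval of -1.13 to 0.18 (adjusted p = 0.805, edgeR). It was -0.27 without wild-type replicate 1 and -0.30 without Ts1Cje replicate 1, while without wild-type replicate 3 it was -0.66 at an unadjusted p of 0.0387 (adjusted p = 0.284). Exons of 3 genes on the opposite strand overlap those of Bace1, Rnf214 over 975 bp, Gm49338 over 951 bp and the antisense gene Gm16536 over 135 bp, out of 6348 exonic bp. The sources used here do not say whether counting used strand, so reads of Bace1 and of these genes cannot be told apart there. Gm16536 itself had counts of 221, 213 and 100 in wild-type replicates 1 to 3 and of 142, 124 and 158 in those of Ts1Cje.

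Bace2, the relative of Bace1 that lies in the segment in 3 copies, was close to the limit of detection. It spans 97356742 to 97442936 on the plus strand of chromosome 16 (ENSMUSG00000040605), 12.2 Mb beyond App and 7.13 Mb beyond Sod1, the gene at the edge of the segment. Wild-type replicates 1 to 3 had 16, 8 and 4 counts, and Ts1Cje replicates 1 to 3 had 6, 22 and 36. Ts1Cje replicates 2 and 3 had more than every wild-type library, but Ts1Cje replicate 1 had fewer than 2 of the 3 wild-type libraries. Over the 3 libraries of each genotype the sums were 28 and 64 counts, a ratio of 1.98 after scaling. Its exact 95% interval, for counting error alone and with every count taken as independent, was 1.25 to 3.21. All of these counts were even, and the interval would be wider if counts came in pairs, which was not tested. With the spread between libraries included, edgeR gave a log2 fold change of 1.01 ± 0.90 (SE), interval -1.09 to 3.12 (adjusted p = 0.838). That interval held both 0 and the 0.58 of 3 copies against 2, so at this depth a gain in proportion to copy number could not be told from none. Leaving out wild-type replicates 1 and 3 gave 1.69 and 0.65, and leaving out Ts1Cje replicate 3 gave 0.43, while the value was 0.16 on log2(TPM + 1) and 0.57 on log2(TPM + 0.1).

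The genes around App and Bace2 give each its setting on the chromosome. On chromosome 16 before Sod1, 315 tested coding genes had a median log2 fold change of 0.05, and App was rank 59 from the lowest. Gabpa, a transcription factor gene 85.9 kb before App, had -0.20 ± 0.19 (SE), and Adamts1, a secreted protease 620.1 kb beyond it, had 0.07 ± 0.36. The 6 nearest tested coding genes of App were Mrpl39, Atp5j and Gabpa before it and Adamts1, N6amt1 and Ltn1 beyond it. They ran from -0.20 (Gabpa) to 0.15 (Mrpl39), and none passed. Between Sod1 and the end of Zbtb21, 45 of 49 tested coding genes had positive values, with a median of 0.65. Bace2 was rank 7 from the highest value among them, but rank 2 from the lowest level and rank 5 from the largest standard error. Its nearest tested coding genes on either side were also low. Before it B3galt5, a galactosyltransferase, was at 1.19 and 2.18 CPM (log2 fold change 0.87 ± 0.73; 0.43 without Ts1Cje replicate 1, 0.47 and 1.81 without wild-type replicates 3 and 1), and after it Tmprss2, a membrane serine protease, was at 1.85 and 0.578 CPM (-1.67 ± 1.51; 1.91 without wild-type replicate 1). Lca5l, the next gene before Bace2, was at 1.35 and 0.920 CPM (-0.55 ± 0.59). Prdm15, the next after it, was at 9.27 and 11.0 CPM (0.25 ± 0.26). Get1, a receptor for tail-anchored membrane proteins, and C2cd2, which lie further out and had more counts, were at 0.61 ± 0.22 and 0.56 ± 0.22 (SE), at adjusted p = 0.792 each (edgeR).

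**Figure D3:**
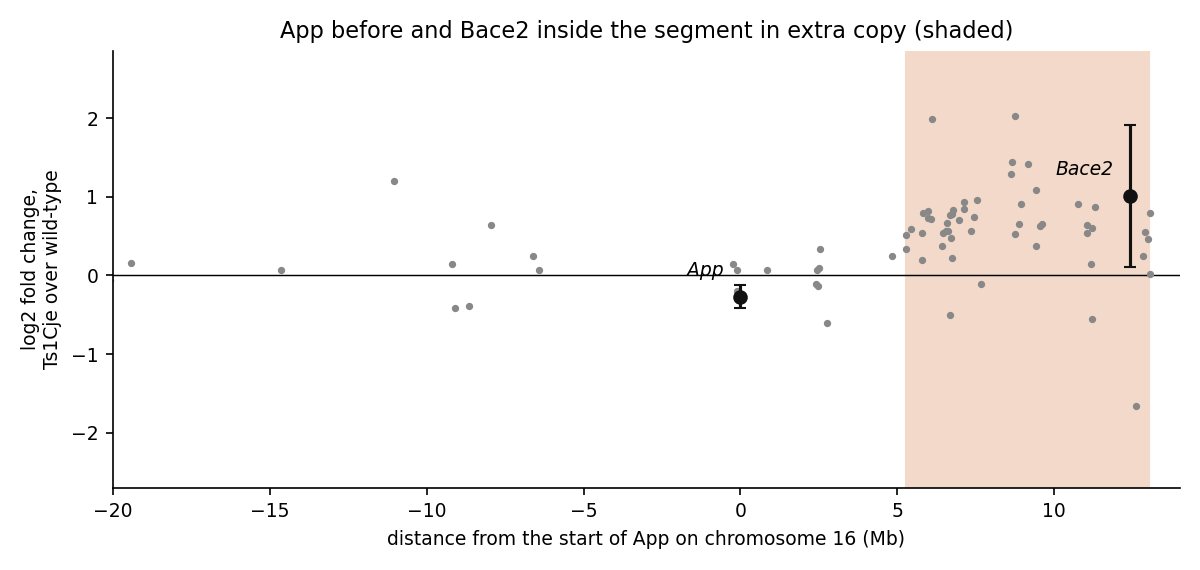
Log2 fold change of Ts1Cje over wild-type for tested coding genes in the part of chromosome 16 around App and Bace2 (grey points). Most tested coding genes before Sod1 lie outside the plot. Distance in Mb is from the lower coordinate of App, its 3′ end, labelled as its start. The stretch from Sod1 to Zbtb21 is shaded, with bars of 1 SE on App and Bace2. App sits at -0.27 among genes near 0, and Bace2 at 1.01 among mostly positive genes, with a bar of 0.90.

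Ratios within a library set Bace2 against a paralog and against App free of scaling. The log2 ratio of Bace2 to Bace1 counts was -5.12, -5.86 and -6.26 in wild-type replicates 1 to 3, against -5.67, -4.13 and -3.58 in Ts1Cje. Ts1Cje replicates 2 and 3 lay above all wild-type libraries, while replicate 1 lay among them. The difference of 1.29 had an exact permutation p of 0.2 (0.6 adjusted over 4 ratios). Bace2 to App gave -8.81, -9.78 and -10.54 in wild-type against -10.10, -8.04 and -7.69 in Ts1Cje, a difference of 1.10 (exact permutation p = 0.3, adjusted 0.6). Bace2 was 0.925% to 2.20% of the summed TPM of both beta-secretases in wild-type and 1.44% to 6.22% in Ts1Cje libraries. Adam10 to Bace1, alpha- against beta-secretase, was 3.47, 3.71 and 4.31 in wild-type against 4.54, 3.81 and 3.61 in Ts1Cje, with means that differed by 0.16 (exact permutation p = 0.6, adjusted 0.6). Per length, Adam10 RNA was 14.3 to 30.1 times that of Bace1 in each of the 6 libraries.

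**Figure D4:**
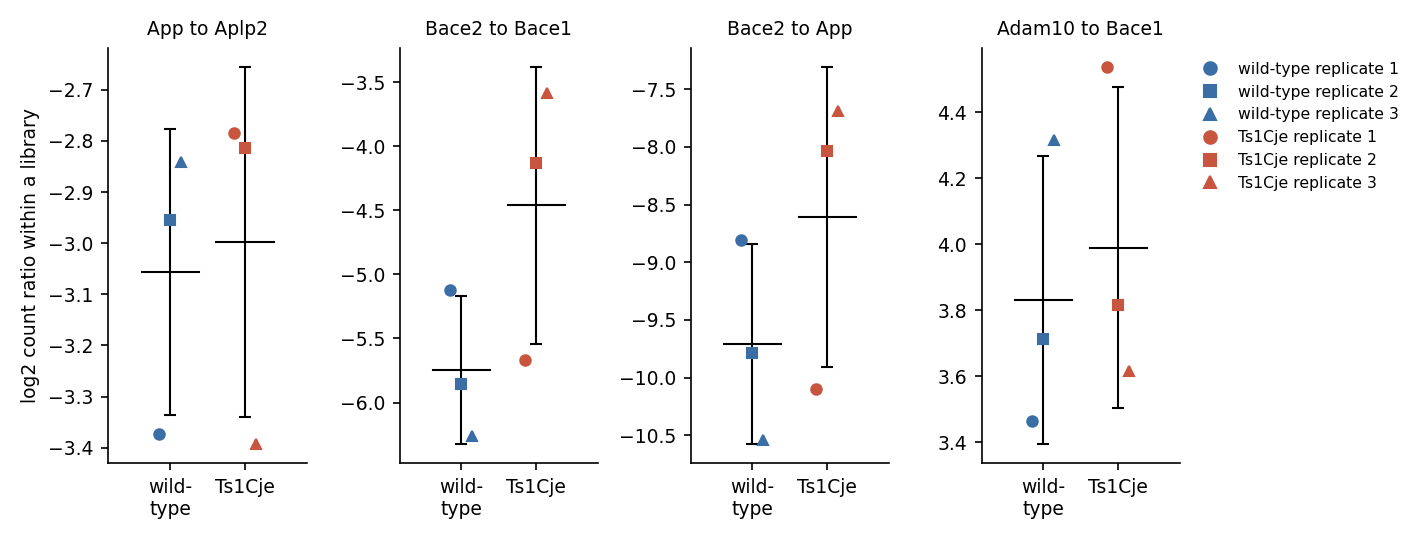
Log2 ratios of counts within each library (symbols as in the plot of TPM; line and bar, mean ± SD of 3 libraries). In both Bace2 panels Ts1Cje replicates 2 and 3 lie above all wild-type libraries and Ts1Cje replicate 1 lies among them, and in the App to Aplp2 and Adam10 to Bace1 panels the genotypes overlap.

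Gamma-secretase subunits had the smallest fitted differences of the members. Ncstn, nicastrin, which takes up substrates, had 229, 277 and 292 CPM in wild-type and 297, 265 and 286 CPM in Ts1Cje replicates 1 to 3 (chromosome 1, 172066013 to 172082795, minus strand). Wild-type replicate 1 was lowest, and the other 5 libraries lay within 265 to 297 CPM. Its log2 fold change was 0.09 ± 0.15 (SE), with an interval of -0.25 to 0.43 (adjusted p = 0.915, edgeR). Ncstn exons overlap those of Copa, a coat protein gene on the opposite strand, over 195 bp. Aph1a, a scaffold subunit on chromosome 3 (95893969 to 95898288, plus strand), had 76.5, 80.2 and 80.4 against 79.5, 86.8 and 76.8 CPM. It was the steadiest member, with a within-genotype SD of 0.07 in log2 CPM that was lower in 1.53% of all genes, and its log2 fold change was 0.04 ± 0.12 (SE), interval -0.25 to 0.32. Aph1a exons overlap those of Car14, on the opposite strand, over 445 of 3450 bp, and Car14 had 0 to 18 counts.

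Psenen, PEN-2, which activates the presenilin, had 92.1, 68.4 and 62.9 CPM in wild-type and 72.2, 65.5 and 73.7 CPM in Ts1Cje (chromosome 7, 30561863 to 30563627, minus strand). Wild-type replicate 1 was highest, and the other 5 libraries lay close together. The log2 fold change was -0.08 ± 0.17 (SE), with an interval of -0.48 to 0.32. A processed pseudogene, Psenen-ps, was in the table at a mean log2 CPM of 1.70, and the sources used here do not say how reads that fit both were counted. Psen2, presenilin 2, a catalytic subunit on chromosome 1 (180227004 to 180263438, minus strand), had 63.8, 60.9 and 110.1 CPM in wild-type and 77.4, 81.6 and 72.5 CPM in Ts1Cje. Wild-type replicate 3 was the highest library and wild-type replicates 1 and 2 were the lowest, with the Ts1Cje libraries in between. Its log2 fold change was -0.02 ± 0.24 (SE), interval -0.57 to 0.53, and it was 0.31 without wild-type replicate 3 (unadjusted p = 0.0562). The upper bounds for Ncstn, Aph1a, Psenen and Psen2 all lay below 0.58.

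The proportions of the subunits per length also varied between libraries. Ncstn was 2.59 to 3.25 times Aph1a and 2.89 to 4.95 times Psen2 in TPM over the 6 libraries. Psenen was 2.04 to 3.26 times Aph1a and 1.94 to 4.90 times Psen2, and Aph1a was 0.917 to 1.65 times Psen2, with the lowest of both Psen2 ratios in wild-type replicate 3. Ncstn exceeded Psenen 1.24 to 1.49 times in 5 libraries, and in wild-type replicate 1 the ratio was 0.796. These are proportions of RNA, and the complex itself was not measured.

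The other genes of the pathway were taken from 5 lists of 67 genes, of which 55 were tested. None passed over all genes (edgeR), and at an unadjusted p under 0.05 there were 3 higher and 2 lower genes, where 2.99% and 2.8% of all genes had one. Values were positive for 30 and negative for 25 of the 55. In CPM 5 of the 55 were higher and 3 lower in every Ts1Cje than in every wild-type library, where 6.38% and 5.72% of all genes were. In TPM 3 were higher and 2 lower, where 5.46% and 5.66% of all genes were. In the list of the remaining family and secretase genes, 4 of 6 were positive and 2 negative, with a median log2 fold change of 0.08. Aph1c, an APH-1 gene found in rodents, had 124, 119 and 119 CPM in wild-type and 146, 177 and 210.3 CPM in Ts1Cje replicates 1 to 3. The lowest Ts1Cje library was above the highest wild-type one, with a log2 fold change of 0.56 ± 0.16 (SE; unadjusted p = 0.00849, adjusted p = 0.792, edgeR). Its neighbour and close copy Aph1b had 0.08 ± 0.24, and reads that fit both genes may be split between them or dropped, so both values are uncertain. Adam17, a sheddase of TNF that can also act as alpha-secretase, had -0.25 ± 0.17, and -0.11 or -0.38 without wild-type replicate 1 or 3. Aplp1, the family member of neurons, had 0.72 ± 0.56 from a mean of 3.73 CPM in wild-type, and 0.30 or 1.30 without the same libraries.

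Among partners and inhibitors of ADAM10 and ADAM17, 12 of 13 could be tested (8 positive, 4 negative, median 0.20). Tspan17, a tetraspanin of the group that carries ADAM10 to the cell surface, had 3.72, 5.20 and 8.75 CPM in wild-type and 11.2, 13.6 and 20.6 CPM in Ts1Cje replicates 1 to 3. The genotypes did not overlap, and the log2 fold change was 1.36 ± 0.38 (SE; unadjusted p = 0.00806, adjusted p = 0.792, edgeR). Tspan10, of the same group, had 1.36 ± 0.91 on 4 to 85 counts a library, and ranged from 0.63 without Ts1Cje replicate 3 to 2.41 without wild-type replicate 1 (0.90 without wild-type replicate 3). Timp2, an inhibitor of metalloproteases, had 0.44 ± 0.31, and -0.0077 without Ts1Cje replicate 3. Of 22 genes for App adaptors and sorting, 19 were tested, 10 positive and 9 negative (median 0.01). Apbb3, an adaptor that binds the App tail, had 13.4, 11.6 and 8.53 CPM in wild-type and 5.33, 5.25 and 4.57 CPM in Ts1Cje. Every Ts1Cje library was lower, at a log2 fold change of -1.14 ± 0.26 (SE; unadjusted p = 0.00259, adjusted p = 0.792, edgeR). DESeq2 called it at an adjusted p of 0.0327, and over all 17 alternatives the adjusted p was 0.0327 to 0.990. Apbb3 exons overlap those of Slc35a4, on the opposite strand, over 152 bp, and Slc35a4 had 2886 to 4106 counts where Apbb3 had 134 to 332.

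Sorl1, a receptor that returns App from endosomes, had 23.2, 11.0 and 4.36 CPM in wild-type and 6.36, 4.32 and 4.94 CPM in Ts1Cje. Wild-type replicates 1 and 2 stood above the other 4 libraries, and the log2 fold change of -1.30 ± 0.55 (SE; unadjusted p = 0.0475, adjusted p = 0.792, edgeR) was -0.56 without wild-type replicate 1. Vps29, a retromer subunit, had 0.40 ± 0.19, and 0.25 without wild-type replicate 1. Of 7 enzymes that degrade amyloid beta, 5 could be tested (4 positive, 1 negative, median 0.51). Ide, insulin-degrading enzyme, had 102, 94.2 and 135 CPM in wild-type and 164, 197 and 221 CPM in Ts1Cje replicates 1 to 3. The groups did not overlap, and the log2 fold change was 0.81 ± 0.19 (SE; unadjusted p = 0.00282, adjusted p = 0.792, edgeR), between 0.70 and 0.99 with single libraries left out. Ide is on chromosome 19, where the median of 407 genes, as log2 CPM less each gene's mean, lay between -0.20 and 0.27 in the 6 libraries, and its part in the Ide values was not tested. Thop1, thimet oligopeptidase, had 0.51 ± 0.22 (SE), and 0.31 without Ts1Cje replicate 2. Plau, urokinase, had 0.89 ± 0.41, which was 0.57 without wild-type replicate 2 and 1.39 without wild-type replicate 3.

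**Figure D5:**
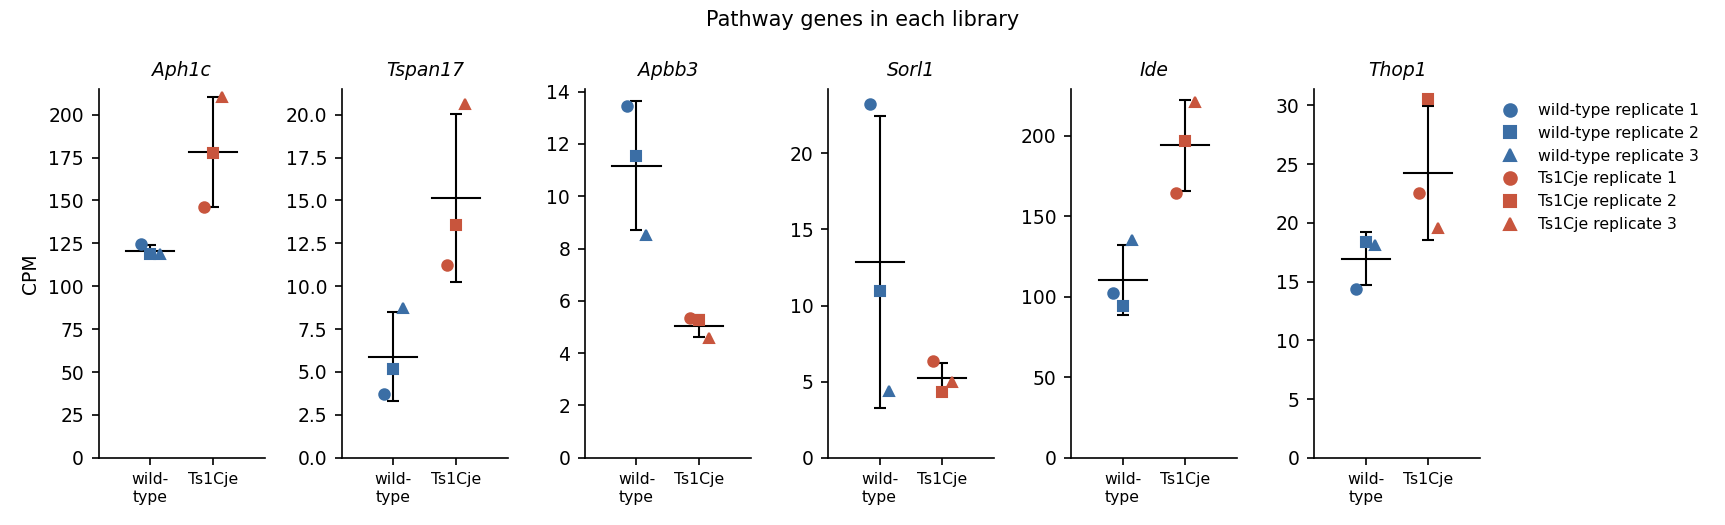
CPM of 6 pathway genes in each library (symbols as in the plot of TPM; line and bar, mean ± SD of 3 libraries, axes from 0). Aph1c, Tspan17, Ide and Thop1 are higher and Apbb3 lower in every Ts1Cje than in every wild-type library, while the Sorl1 genotypes overlap. Of all genes, 6.38% were higher and 5.72% lower in this way. In TPM the Thop1 genotypes overlap.

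Substrates of gamma-secretase and targets of Notch had 13 of 19 genes tested (4 positive, 9 negative, median -0.32). Those with the smallest p were Csf1r, the M-CSF receptor, at -0.59 ± 0.29, Notch4 at -1.02 ± 0.53 and Notch2 at -0.35 ± 0.24 (SE), and none of the 13 reached an unadjusted p of 0.05 (edgeR). Csf1r was -0.23 without wild-type replicate 1, in which it was highest (2435 CPM against 1066 to 1528 in the other 5). Notch2 was -0.12 without wild-type replicate 1 and -0.54 without wild-type replicate 3, and Notch4 was -0.34 on log2(TPM + 1). The Notch target Hey1, named after its values were seen, had 1.05, 0.972 and 0.676 CPM in wild-type and 0.266, 0 and 0.614 CPM in Ts1Cje replicates 1 to 3. Its genotypes did not overlap in CPM, at 0 to 26 counts a library, and it did not pass (unadjusted p = 0.180, adjusted p = 0.813, edgeR). The targets Hes1, Heyl and Nrarp had too few counts to be tested.

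Finally, 8817 genes with a mean log2 CPM above 3 were ranked by Pearson's r with App in log2 CPM over the 6 libraries. The closest were Hdgfl2 (r = 0.994), Trp53inp1 (r = 0.989) and Lrch3 (r = 0.988), and 181 genes had an r above 0.9. For Bace2 they were Chid1 (r = 0.983), Cyba (r = 0.976) and Tomm20 (r = 0.974), with 65 genes above 0.9. These are descriptions over 6 libraries of both genotypes, in which all genes share each library's depth and scaling factor, and the Bace2 values rest on 4 to 36 counts.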

How the data were processed

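Total RNA was made into SMART-seq HT Plus libraries, per the labels' protocols. Alignment with HISAT2 2.1.0, counting with featureCounts 1.6.3, trimming with Trimmomatic 0.38, quality control with FastQC 0.11.7 and the build mm10 are named in the submitters' processing notes. Not given in the sources used here are the settings for strand and multi-mapping reads. The deposited tables by the authors hold raw counts per gene and TPM, 1 column per library. Total counts were 25484294 to 32658148. Counts were tested with edgeR 4.0.16 (quasi-likelihood, R 4.3.3), genotype as the only term, TMM factors, filterByExpr (count minimum 10, total minimum 15) and Benjamini-Hochberg over 13821 genes. CPM use each library's total over the tested genes and its TMM factor. Log2 CPM add a prior count of 2, and log2 ratios of counts add 0.5. SE is the log2 fold change over the root of F. Intervals are 95%, and those drawn from counts cover counting error only, with every count taken as independent.

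The alternatives were RLE or upper-quartile factors, TMM without chromosome 16, DESeq2 1.42.0, limma-voom (limma 3.58.1), limma on log2 TPM, no filter, a stricter one, a replicate block and each library left out. The fits were tested on simulated data. The text names all members, up to 3 genes of each pathway list by smallest p, Adam17, Aph1b and Aph1c, 3 neighbours a side and 3 genes of like pattern; other genes were chosen after their values were seen. The result of 1 gene the rule names is not reported here. Members and lists were chosen with earlier results of these data known. Coordinates of 9 of 9 members are identical in GENCODE M21. Promoters of App, Aplp2 and Adam10 are from RefSeq; Bace1 and Bace2 were not in that table.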

Additional observations from a re-analysis of the deposited data

How the results depend on the processing

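No member passed in any of the 17 alternatives, at adjusted p of 0.284 to 0.999 over 151 values. Of these 141 kept their direction, and 10 reversed. Psen2 reversed to 0.030 with limma-voom, to 0.024, 0.026 and 0.024 on log2(TPM + 1), log2(TPM + 0.1) and log2(TPM + 1) with a TPM minimum of 1, to 0.034 with the replicate block, to 0.31 without wild-type replicate 3 and to 0.015 without Ts1Cje replicate 3. Ncstn was -0.017 and Psenen 0.092 without wild-type replicate 1, and Aph1a was -0.014 without Ts1Cje replicate 2. With single libraries left out Psen2 ranged from -0.18 to 0.31, Ncstn from -0.017 to 0.17, Psenen from -0.18 to 0.092 and Aph1a from -0.014 to 0.067. One member had an unadjusted p under 0.05 with upper-quartile factors (Adam10) and 1 without wild-type replicate 3 (Bace1); with single libraries left out the number was 0 to 1. Bace2 could not be tested under the stricter filter or the TPM minimum.

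Over all genes, 3 were called with no filter, 56 by DESeq2, 0 with the replicate block and 1 to 6 with single libraries left out (6 without wild-type replicate 3). With single libraries left out the App to Aplp2 difference ranged from -0.10 (no wild-type replicate 1) to 0.26, and was -0.048 and -0.033 without Ts1Cje replicates 1 and 2. The Adam10 to Bace1 difference ranged from -0.12 to 0.40, and was -0.024 without wild-type replicate 1 and -0.12 without Ts1Cje replicate 1. Bace2 to Bace1 stayed at 0.85 to 1.89 and Bace2 to App at 0.64 to 1.85. Among 28 other named genes 11 of 472 values reversed: Timp2 at -0.0077 and Aph1b at -0.16 without Ts1Cje replicate 3, Aph1b at -0.013 without wild-type replicate 2, Atp5j at -0.0088 without wild-type replicate 1, Ltn1 at -0.014 without Ts1Cje replicate 1, Adamts1 at -0.18, -0.12 and -0.10 without wild-type replicates 1 and 2 and Ts1Cje replicate 1, and Tmprss2 at 0.87 with limma-voom, 0.36 with the replicate block and 1.91 without wild-type replicate 1. With single libraries left out the highest value was 0.63 for Timp2, 0.25 for Aph1b, 0.12 for Atp5j, 0.12 for Ltn1 and 0.63 for Adamts1, and the lowest for Tmprss2 was -2.25. The cause was not tested.

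Same-numbered libraries of the genotypes did not deviate together (r = -0.35, -0.06 and -0.21 over 8818 genes for replicates 1 to 3), so the numbers were not taken as pairs. With the replicate block the ratios have the same differences (0.06, 1.29, 1.10 and 0.16) by arithmetic, so these are no check of the ratios. No member passed with the block. Depth limits Bace2 above all, at 4 to 36 counts a library.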
